A study of Rattus norvegicus with 12 samples.

Results

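The small RNA features of rat cornea libraries are described here: gene models that the deposited annotation classes as snoRNA, snRNA, scaRNA, miRNA or misc_RNA. A feature was taken when its FPKM (fragments per kilobase of gene length and 1000000 assigned reads) was above 0 in at least 3 of the 12 libraries. This rule left 234 of the 3726 features of those classes, out of 30452 genes in the table. They were 106 snoRNAs, 84 snRNAs, 30 miRNAs, 8 misc_RNAs and 6 scaRNAs. The rule itself used the measured values, so the number of libraries in which a member was found is a description and not a result. Of the features outside it, 97 had reads in 2 libraries and 250 in 1 library. Just inside it, 75 members had reads in exactly 3 libraries, and 12 had reads in all 12.

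The study compared whole corneas of Rattus norvegicus in 4 groups of 3 libraries each. The groups carry the names Control, Alkali-burned (corneas injured with alkali), SF/HA, and SF/HA-HEP-PAM. Labels give the last pair only by these names, and the strain, age, sex, time after injury and number of animals behind a library were not given in the sources used here. Whether the SF/HA and SF/HA-HEP-PAM corneas were burned as well is also not written in the labels. Nothing in the labels says that libraries came from separate animals, so p-values measure the spread between libraries, which may be technical. Reverse transcription started from poly(dT) primers with sample barcodes and molecular identifiers. Such primers copy RNA with a poly(A) tail or an A-rich stretch, and most mature RNAs of these classes carry no poly(A) tail.

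Small nucleolar RNAs guide the chemical modification of ribosomal RNA: box C/D members guide 2′-O-methylation and box H/ACA members guide pseudouridylation. In mammals most of them are cut from introns of host genes, many of which encode ribosomal proteins or translation factors. Small Cajal body RNAs (scaRNAs) guide the same modifications on spliceosomal RNAs. The snRNAs U1, U2, U4, U5, U6 and U12 are the RNA cores of the spliceosomes, and U7 acts in histone mRNA processing. By name, the 8 misc_RNA members are all copies of 7SL, the RNA scaffold of the signal recognition particle (SRP). That particle brings ribosomes making secreted proteins to the endoplasmic reticulum. MicroRNAs are cut from hairpins in longer, often polyadenylated, primary transcripts, and the mature strand pairs with target mRNAs through its seed.

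Mature sequences were found in RefSeq (annotation of GRCr8, another build than the one behind the counts) for 27 of the 30 miRNA members, 43 mature strands in all. For most of the miRNA members named below 1 mature strand, and for Mir24-2 both, is printed 5′ to 3′ with the seed, bases 2 to 8, in capitals, so that shared seeds can be seen. A read on a miRNA feature was a read on the hairpin gene model, and which strand or precursor it came from is not in the deposited values.
rno-miR-24-3p: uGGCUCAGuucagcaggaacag
rno-miR-24-2-5p: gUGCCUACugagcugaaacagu
rno-miR-23a-3p: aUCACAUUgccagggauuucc
rno-miR-23b-3p: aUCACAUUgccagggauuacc
rno-miR-27a-3p: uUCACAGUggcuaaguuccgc
rno-miR-3064-3p: uUUGCCACacugcaacaccuuaca
rno-miR-205: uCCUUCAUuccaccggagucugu
rno-miR-155-5p: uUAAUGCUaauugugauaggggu
rno-miR-130a-3p: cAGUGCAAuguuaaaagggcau
rno-miR-349: cAGCCCUGcugucuuaaccucu
rno-miR-184: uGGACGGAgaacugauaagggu
miR-23a-3p and miR-23b-3p shared the seed UCACAUU although their genes lie on chromosomes 19 and 17. The let-7a and let-7b hairpins shared GAGGUAG, and miR-212-3p and miR-132-3p shared AACAGUC. The 3′ strands of both let-7 members also shared UAUACAA.

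The libraries held 486264 to 2117399 assigned reads, as recovered from the FPKM values. Control had 486264 to 1015788, Alkali-burned 1173159 to 1265298, SF/HA 499061 to 957696 and SF/HA-HEP-PAM 1245606 to 2117399. The 234 members received 6820 reads in all, with a median of 8 reads per member over the 12 libraries. One read on a member was worth 0.472 to 2.06 RPM (reads per 1000000 assigned reads), and the limit that 0 reads allow (3 reads) was 1.42 to 6.17 RPM. These limits cover counting error only. The 6 tested markers of corneal epithelium, among them the cornea keratin Krt12, summed to 18600 to 56800 RPM over the libraries. Markers of keratocytes summed to 12300 to 21500 RPM in SF/HA-HEP-PAM and to at least 27300 in every other library.

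Members lay more often inside host genes than the annotated features did as a whole. A host was a protein-coding or lncRNA gene whose span held the feature on the same strand. Of the 866 annotated features with such a host, 110 (12.7%) met the rule. Of 637 features inside a gene on the opposite strand only, 33 (5.18%) did. Of 2221 features outside genes, 91 (4.1%) did. The deposited table gives gene spans without exons, so intron, exon and UTR positions were not assigned. The 110 members lay in 101 hosts, 101 members in protein-coding hosts and 9 in lncRNA hosts. Their hosts were also more abundant: the median host had 362 reads, against 108.5 for the hosts of annotated features that did not meet the rule.

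The position differed by class. Among snoRNAs, 65 of 413 with a same-strand host met the rule (15.7%), against 33 of 1016 outside genes (3.25%). Among snRNAs, 35 of 255 in a same-strand host met it (13.7%), against 28 of 961 outside genes (2.91%). For miRNAs the order was the other way: 4 of 174 with a same-strand host (2.3%) and 22 of 218 outside annotated genes (10.1%). Of the scaRNA members 4 of 6, and of the misc_RNA members 2 of 8, had a same-strand host.

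Ribosomal protein genes are the classic hosts of snoRNAs. Genes with a symbol of Rpl or Rps followed by a number held 16 members in 12 genes. This count by symbol takes in Rpl7l1 and leaves out Rpsa, which held 1 member named SNORA73, and any gene model without such a symbol. Rpl7a, a large-subunit protein gene, held 2 members named SNORD36 with 29 reads between them beside 16306 host reads. Rps12 held Gm23130 and Snora33 (18 reads beside 7867), Rps3a held 2 SNORD73 members (7 beside 9182), and Rpl17 held 2 SNORD58 members (7 beside 11721). Other members had more reads than their host. Tex14, a testis gene with 1 read in all libraries together, spanned 5 members (2 U1, 2 U3 and 1 U4) with 49 reads. The 7SL copy inside Zfp622 had 1930 reads against 177 for the gene around it. The U1 copy inside Trappc8 had 306 against 99, and the 7SL copy inside Neto2 had 134 against 13.

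Near-identical copies shared a name, and how reads matching several copies were assigned is not given in the sources used here. Of 796 annotated U6 copies 41 were members, of 167 U1 copies 16, of 236 U2 copies 10, of 136 U4 copies 6 and of 26 Metazoa_SRP (7SL-like) copies 7. The single U8 gene and 3 of 4 U12 genes were members. None of 54 SNORD115 or 39 SNORD116 copies, the brain-enriched repeats of the Prader-Willi region, was a member. Values for one U1, U2, U4, U6 or 7SL copy are therefore uncertain as values of that locus.

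The SF/HA-HEP-PAM libraries held the largest share of reads on small RNA features. Members took 216, 262 and 308 RPM in the Control libraries, 288, 338 and 410 in Alkali-burned, 228, 270 and 353 in SF/HA, and 761, 926 and 1110 in SF/HA-HEP-PAM. The means were 262 ± 46.4, 345 ± 61.5, 284 ± 63.6 and 932 ± 174 (SD, n = 3 each). The SF/HA-HEP-PAM libraries did not overlap any other library, whereas the other groups overlapped. No test was made of this sum, because the members were chosen by their reads. Without the member with most reads, the means were 191, 221, 209 and 686.

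In every class but scaRNA, the mean was highest in SF/HA-HEP-PAM, while the order of the other groups varied by class. snoRNA members took 209 ± 49.1 RPM in SF/HA-HEP-PAM and 65 to 70.1 in the other group means. snRNA members took 220 ± 69.9 against 52.4 to 61.9. miRNA members took 123 ± 19.1 against 33 to 43.2. misc_RNA members took 373 ± 51.5, against 90 ± 10.9 in Control, 171 ± 39.2 in Alkali-burned and 114 ± 49.5 in SF/HA (SD, n = 3 each). scaRNA members took 6.59 ± 4 in SF/HA-HEP-PAM and 5.38 to 8.77 in the other means, with 87 reads in all.

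**Figure D1:**
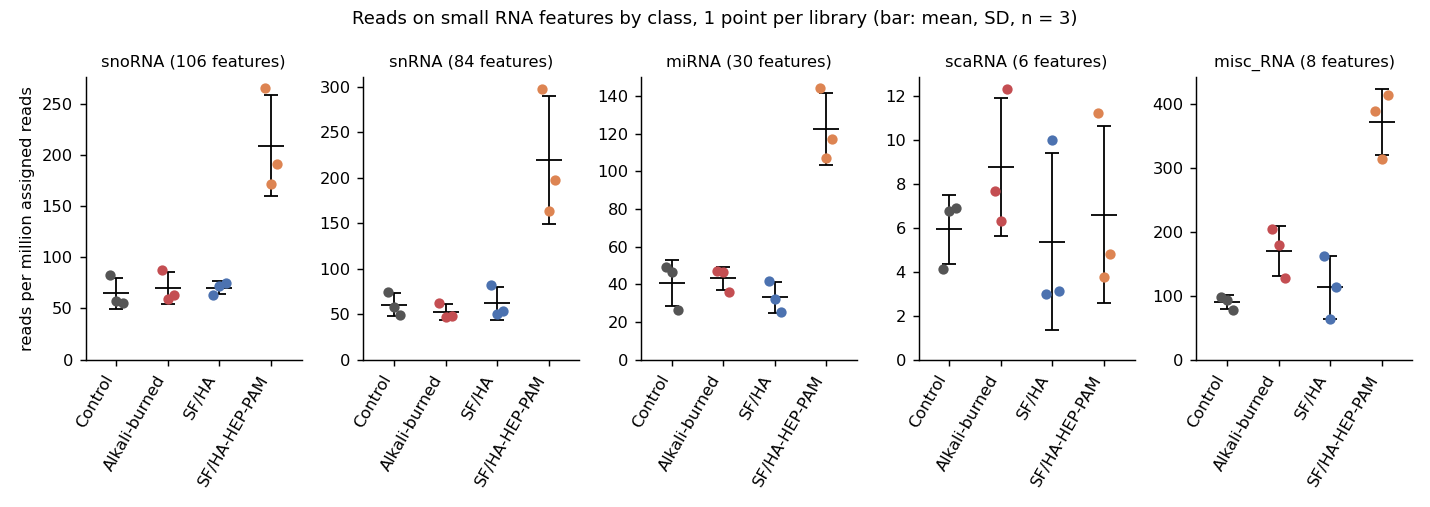
Reads on the members of each class, in RPM (vertical axis, linear, from 0), for each of 3 libraries in the 4 groups (points), with the mean and SD. The SF/HA-HEP-PAM points lie above every other library for snoRNA, snRNA, miRNA and misc_RNA, and among the others for scaRNA.

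The host genes did not show this pattern. The 101 same-strand hosts took 1.81% ± 0.113 of reads in Control, 2.18% ± 0.136 in Alkali-burned, 2.21% ± 0.13 in SF/HA-HEP-PAM and 2.32% ± 0.133 in SF/HA (SD, n = 3 each). The 110 members inside them took 143, 203, 159 and 613 RPM. Members outside genes took 97, 131, 105 and 271, and members opposite a gene 22.1, 10.7, 19.8 and 47.5. Other sums moved with the same libraries. lncRNA genes took 0.942% ± 0.115 of reads in SF/HA-HEP-PAM and 0.617% to 0.715% in the other means. Genes with spans over 100 kb took 5% ± 0.538 against 3.7% to 3.87%. Mitochondrial rRNA took 1.56% ± 0.262 against 2.69% to 4.77%. The part of these sums in the result was not tested.

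Over all annotated features of these classes, which were not chosen by their reads, each SF/HA-HEP-PAM library had reads on 212 to 283. Each other library had reads on 68 to 140 of them. Thinned to 486264 reads, 112.6 to 153.9 would be expected in the SF/HA-HEP-PAM libraries and 58.6 to 90 in the others. The SF/HA-HEP-PAM libraries lay above all others both ways. The counts of members that follow are descriptions, since members were chosen by detection in these libraries. Each SF/HA-HEP-PAM library had reads on 146 to 184 members, and each other library on 56 to 118. SF/HA-HEP-PAM replicate 3, with 1245606 reads, lies within the depth range of the Alkali-burned libraries, and had reads on 146 members where those had 97 to 118. With every library thinned to 486264 reads, 92.3 to 112.1 members would be expected in the SF/HA-HEP-PAM libraries and 49.5 to 70 in the others. The number of members found in all 3 libraries of a group was 102 in SF/HA-HEP-PAM, 47 in Alkali-burned, 25 in Control and 24 in SF/HA. In all, 9 members had reads in SF/HA-HEP-PAM only. Without the SF/HA-HEP-PAM libraries 125 members would still meet the rule, and 109 met it only through them.

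**Figure D2:**
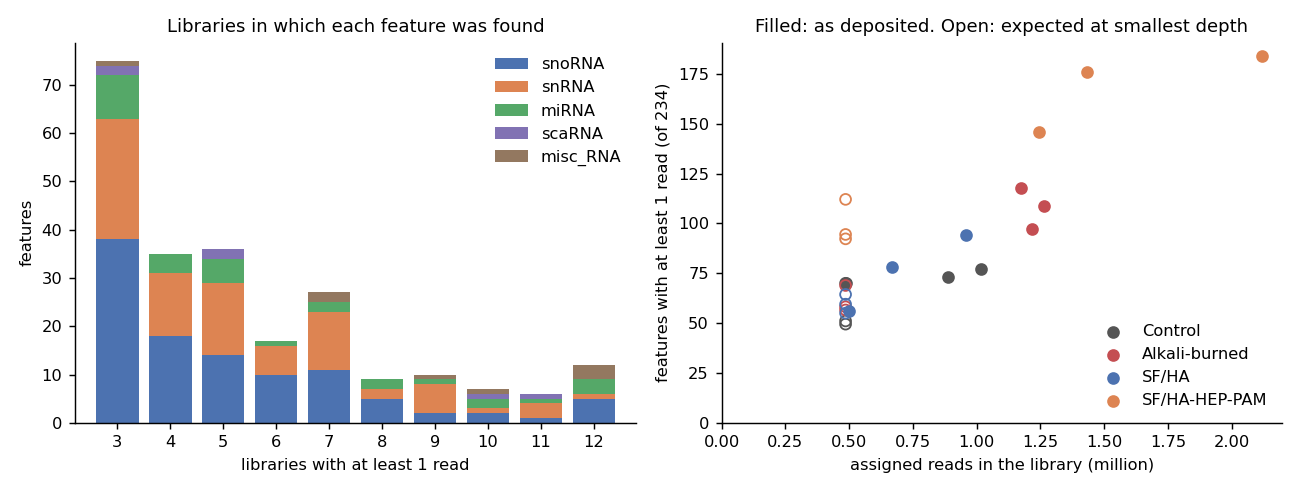
Left, number of members (vertical axis) by the number of libraries with at least 1 read, stacked by class; 75 of 234 lie at the rule's limit of 3 libraries. Right, members with reads against assigned reads per library in units of 1000000 reads, for the deposited depth (filled) and thinned to the smallest depth (open); the SF/HA-HEP-PAM libraries lie highest both ways.

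Single members were tested with limma on log2(FPKM + 1) over all 6112 genes with at least 1 FPKM in 3 libraries. Since 1 read gives a short feature more than 1 FPKM, all 234 members passed this filter. A member was called when its Benjamini-Hochberg adjusted p was below 0.05 and its log2 difference beyond 1 in size. log2 differences below are on the log2(FPKM + 1) scale, and for a short feature they depend on single reads where a group is near 0. Each call was therefore set beside limma voom on the recovered reads, which tested the 103 members with at least 10 reads. The comparisons share groups and are not independent of each other. For the 109 members that met the rule only through the SF/HA-HEP-PAM libraries, differences and p-values between that group and the others draw on the values that chose them, and are descriptions. Among those named below these are the U1 copy in Spire1, the U6 copy opposite Nvl, AABR07004450.2, AABR07044447.1, Mir27a, Mir130a and Mir349. The same holds for the counts of called members in all 3 contrasts of that group, which are set beside the background without reading anything from it. Likewise, 33, 44 and 27 members met the rule only with the Control, Alkali-burned or SF/HA libraries. For them the contrasts of those groups are descriptions.

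Against Alkali-burned corneas, 38 members were higher and 2 lower in SF/HA-HEP-PAM (16.2% and 0.855% of 234), where 7.38% and 3.71% of all tested genes were. A second set was chosen after the data were seen, from reads in at least 3 of the 6 Control and SF/HA libraries. This contrast does not compare the means of those groups, but their libraries share its estimate of the spread. The set is therefore not fully independent of the calls. Of the 59 members of this set, 10 were higher (16.9%) and 0 lower, with a median log2 difference of 1.19 against 0.04 for all tested genes. At unadjusted p below 0.05 this set had 20 members. No share over all genes was computed at that level, so nothing is read from this count. voom called 13 of 50 higher (26%) and 0 lower, with 11.7% and 4.78% of all its genes called. lncRNA genes stood at a like share, with 73 of 333 (21.9%) higher, and protein-coding genes at 5.98%. The count over all members fell from 40 to 21 when SF/HA-HEP-PAM replicate 1 was left out, and to 24 without replicate 3.

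Against SF/HA, 36 members were higher and 0 lower in SF/HA-HEP-PAM (15.4% higher, against 3.84% of all genes higher and 0.524% lower). In that contrast 78 members had an unadjusted p below 0.05, also without a share over all genes. voom called 16 members higher and 0 lower there (5.17% and 1.02% of all its genes). Leaving out SF/HA-HEP-PAM replicate 1, 2 or 3 left 7, 12 or 8 calls. Against Control, 57 were higher and 2 lower (24.4% and 0.855%, against 9.21% and 2.39% of all genes), and 36 calls were left without SF/HA-HEP-PAM replicate 1. voom called 27 higher and 2 lower in the Control contrast (10.2% and 2.96% of all its genes). Among the 4 groups, the limma F-test called 58 of 234 members at adjusted p below 0.05, with 26.7% of all tested genes called. voom called 29 of its 103 members, with 20.7% of all its genes.

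The 7SL copies carried the most reads. The copy inside Zfp622 (ENSRNOG00000048993, chr2:76397465-76397766, plus strand, mRatBN7.2 throughout) had 37, 67 and 61 reads in Control, 175, 163 and 114 in Alkali-burned, 62, 26 and 78 in SF/HA, and 366, 443 and 338 in SF/HA-HEP-PAM. The SF/HA-HEP-PAM group held 239 RPM and the others 69.1 to 124. SF/HA-HEP-PAM exceeded Control 3.46-fold (95% exact interval 2.94 to 4.1, counting error only). limma gave a log2 difference of 1.79 ± 0.24 (SE) against Control (adjusted p = 0.000914) and 1.73 ± 0.24 against SF/HA (adjusted p = 0.00289). Against Alkali-burned the limma difference was just past the size limit of 1 (SE 0.24, adjusted p = 0.0144). That call was lost with voom (0.99), with median-of-ratios scaling (0.81) and with quantile normalization (0.93). It was also lost without SF/HA-HEP-PAM replicate 1 (0.97) or 3 (0.93), and when Alkali-burned replicate 3 was left out (0.81).

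Another 4 copies of 7SL were higher in SF/HA-HEP-PAM than in Control by limma. The copy outside genes on chromosome 10 (ENSRNOG00000059449) had 8, 6 and 4 reads in Control, 28, 28 and 20 in Alkali-burned, 21, 2 and 17 in SF/HA, and 95, 119 and 79 in SF/HA-HEP-PAM. Its log2 difference from Control was 2.97 ± 0.66 (limma adjusted p = 0.0106). The copy on chromosome 8 (ENSRNOG00000055825) differed by 2.27 (limma adjusted p = 0.00908), and that inside Neto2 (ENSRNOG00000061297) by 3.93 (limma adjusted p = 0.046). The Neto2 call was lost without any one of 10 libraries. The last copy, ENSRNOG00000053902, had 11 reads in all, 7 of them in SF/HA-HEP-PAM, and voom did not call it (adjusted p = 0.279). None of the first 3 was called against Alkali-burned by limma, whereas voom called all 3 higher there (1.56, 1.16 and 1.85, adjusted p = 0.002, 0.0171 and 0.0103). Rn7sl1, the named 7SL gene, had 1 read in Control, 5 each in Alkali-burned and SF/HA, and 17 in SF/HA-HEP-PAM, and was not called against Alkali-burned. ENSRNOG00000067948 had 1 read in Control and 7, 5 and 3 in SF/HA-HEP-PAM, and was called in no comparison. The copy ENSRNOG00000051865 went the other way, with 1 read in each Alkali-burned library and 0 in the 9 others. limma called it higher in Alkali-burned than in each other group (1.95 each time), but those 3 reads are also what made it a member. Of the protein genes of the particle, 6 were tested, and limma called 0 in any of the 6 comparisons.

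**Figure D3:**
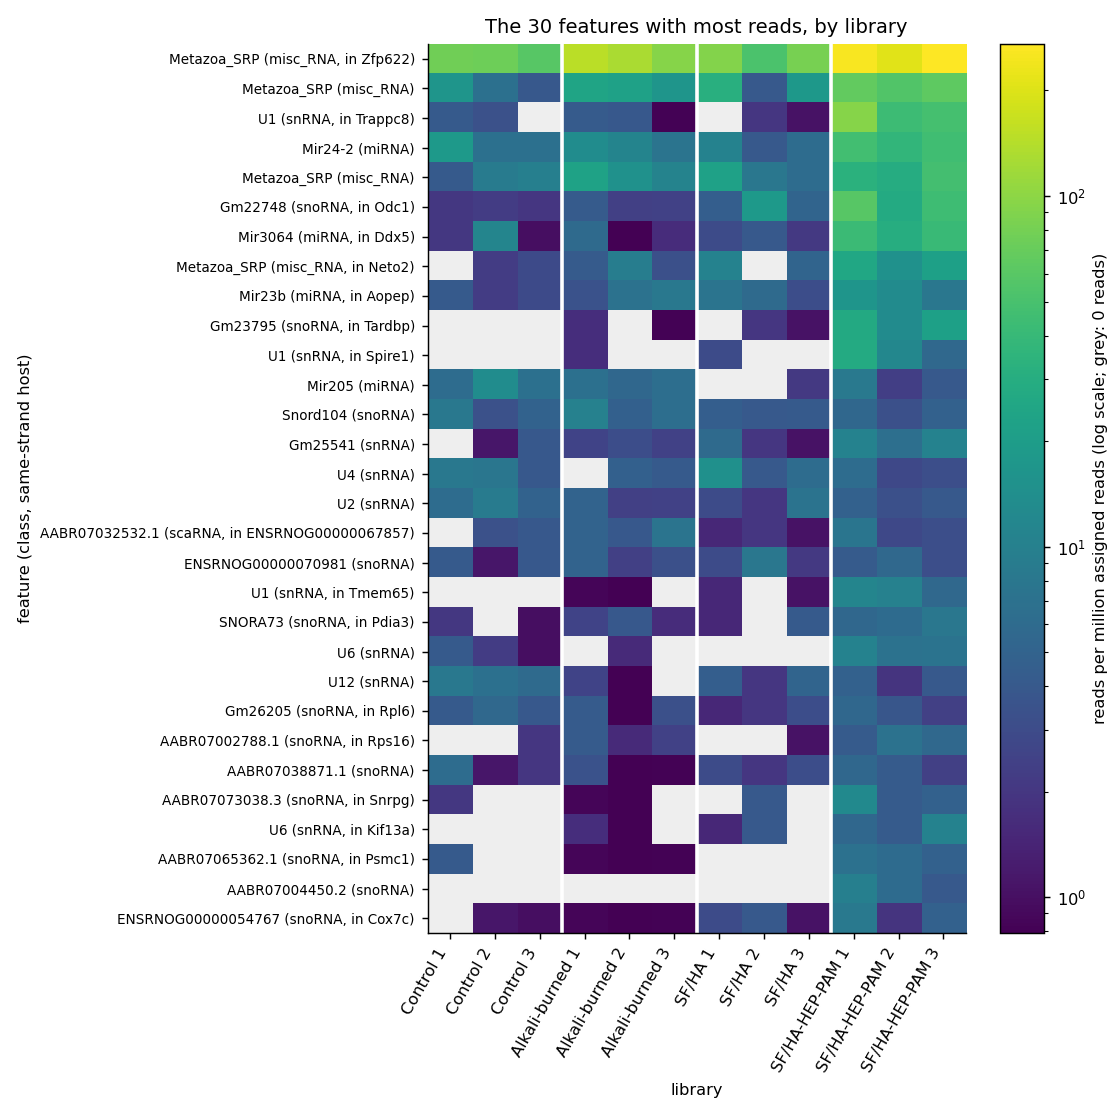
The 30 members with most reads (rows, with class and same-strand host) in the 12 libraries (columns); colour gives RPM on a log scale and grey marks 0 reads. The U1 copy in Trappc8, Gm22748, Mir3064 and Gm23795 are brightest in the 3 SF/HA-HEP-PAM libraries, while Snord104, U4 and U2 show no such contrast between groups.

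Of the spliceosomal RNAs, 3 U1 copies inside host genes had most of their reads in SF/HA-HEP-PAM. The copy in Trappc8 (ENSRNOG00000057382, chr18:12128484-12128622, minus strand), a trafficking-complex gene, had 2, 3 and 0 reads in Control, 5, 5 and 1 in Alkali-burned, 0, 1 and 1 in SF/HA, and 136, 92 and 60 in SF/HA-HEP-PAM. The last group was 20-fold above Alkali-burned (95% exact interval 11 to 40.4). limma gave 4.50 ± 1.35 (adjusted p = 0.0378), a call lost without any one of the 6 libraries compared, with adjusted p up to 0.125 over the alternatives. voom gave 4.31 (adjusted p = 7.02e-05).

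The copy in Spire1 (ENSRNOG00000061580), an actin nucleator gene, had 0 reads in Control, 2 reads in 1 library each of Alkali-burned and SF/HA, and 40, 25 and 7 in SF/HA-HEP-PAM. Its log2 difference from Alkali-burned was 5.07. No test is given for this copy, since its reads in SF/HA-HEP-PAM are what made it a member. The copy in Tmem65 (ENSRNOG00000055394) had 0 reads in Control, 1, 1 and 0 in Alkali-burned, 1, 0 and 1 in SF/HA, and 16, 22 and 7 in SF/HA-HEP-PAM, a log2 difference of 4.06 ± 0.89 from Alkali-burned (limma adjusted p = 0.00953). Against Control, both had folds of at least 12 and 7.47, taking 3 reads over the group as the limit of 0 reads.

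Several U6 copies took more RPM in SF/HA-HEP-PAM than in the other groups. ENSRNOG00000069333 (chr3:44660847-44660953, outside genes) had 2, 2 and 1 reads in Control, 0, 2 and 0 in Alkali-burned, 0 in SF/HA and 15, 15 and 9 in SF/HA-HEP-PAM, a log2 difference of 4.94 ± 0.91 from Alkali-burned (limma adjusted p = 0.00421). The copy opposite Nvl (ENSRNOG00000061131) had 0 reads in Alkali-burned and 11, 6 and 7 in SF/HA-HEP-PAM, a log2 difference of 5.58. No test is given for this copy, since its reads in SF/HA-HEP-PAM are what made it a member. The copy in Kif13a (ENSRNOG00000053330) had 0 reads in Control and 8, 9 and 13 in SF/HA-HEP-PAM. It was higher than Control (5.89 ± 1.27, limma adjusted p = 0.00908) and not called against Alkali-burned (3.51 ± 1.27, limma adjusted p = 0.0723).

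Gm25541 (ENSRNOG00000055021, chr3:10859868-10859993, minus strand) is another snRNA with many reads. It had 0, 1 and 4 reads in Control, 3, 4 and 3 in Alkali-burned, 4, 1 and 1 in SF/HA, and 15, 14 and 13 in SF/HA-HEP-PAM. The last group lay above all other libraries in reads. It was called higher than Control (3.40 ± 1.03, limma adjusted p = 0.0394; voom 2.10, adjusted p = 0.0211), a limma call lost without any one of 8 libraries. Against Alkali-burned limma did not call it (1.68, adjusted p = 0.274) and voom did (1.52, adjusted p = 0.0401).

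The U4 and U2 copies with most reads were called in no comparison. The U4 copy with most reads (ENSRNOG00000071022) had 4, 7 and 4 reads in Control, 0, 6 and 5 in Alkali-burned, 10, 2 and 6 in SF/HA and 9, 6 and 4 in SF/HA-HEP-PAM. The U2 copy with most reads (ENSRNOG00000064360) took 6.7, 3.28, 4.71 and 3.96 RPM in the 4 groups. The 3 U2 members of one cluster on chromosome 10 took 4.52, 4.95, 3.2 and 2.51. The Tex14 cluster took 6.55 ± 5.02 in Control and 2.1 ± 1.05 in SF/HA-HEP-PAM. In it, the U1 copy ENSRNOG00000065502 and the U4 copy ENSRNOG00000060659 had 4 and 3 reads in Control and 0 in Alkali-burned. limma called both lower in Alkali-burned than in Control (log2 differences of -3.48 and -3.12). The Control reads are also what made both of them members, so these differences are descriptions. So the higher share of snRNA reads was not shared by every copy. Of the snRNP protein and processing genes, 17 were tested, and limma called 1, a gene model named for the core Sm protein gene Snrpg (ENSRNOG00000032232), higher in Alkali-burned than in Control (1.01, adjusted p = 0.00829). The other Snrpg model (ENSRNOG00000016507) was not called there (0.59, limma adjusted p = 0.0741), and reads of 2 such near-identical genes may have been split between them.

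Among snoRNAs, Gm22748 and Gm23795 differed most clearly. Gm22748 (ENSRNOG00000055217, chr6:40331143-40331276, plus strand) lies inside Odc1, which encodes ornithine decarboxylase, the rate-limiting enzyme of polyamine synthesis. It had 1, 2 and 2 reads in Control, 5, 3 and 3 in Alkali-burned, 3, 9 and 5 in SF/HA, and 86, 60 and 55 in SF/HA-HEP-PAM, with no overlap between the last group and the others. The difference from Alkali-burned was 3.79 ± 0.48 (limma adjusted p = 0.000574), or 13.9-fold (95% exact interval 7.62 to 28.4). Odc1 itself differed by 2.30 ± 0.18 in the same contrast (limma adjusted p = 5.06e-05), and by 0.79 from Control, where Gm22748 differed by 4.25.

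Gm23795 (ENSRNOG00000059686, chr5:159058554-159058689, minus strand) lies inside Tardbp, the gene of the RNA-binding protein TDP-43. It had 0 reads in all 3 Control libraries, 2, 0 and 1 in Alkali-burned, 0, 1 and 1 in SF/HA, and 39, 28 and 27 in SF/HA-HEP-PAM. The log2 difference from Alkali-burned was 5.01 ± 1.05 (limma adjusted p = 0.00774), and the ratio 23.9-fold with an exact 95% interval of 7.93 to 118. Against Control the group was at least 15.6-fold higher. Tardbp differed by 0.40 ± 0.15 from Alkali-burned and was not called (limma adjusted p = 0.0782).

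A pair of snoRNAs had almost all their reads in SF/HA-HEP-PAM. AABR07004450.2, opposite Fsd2, had 0 reads in the 9 other libraries and 14, 13 and 5 there, at least 8.13-fold above Alkali-burned. No test is given for it, since the reads in these 3 libraries are what made it a member. AABR07065362.1, inside the proteasome gene Psmc1, had 2, 0 and 0 reads in Control, 1 in each Alkali-burned library, 0 in SF/HA and 10, 13 and 6 in SF/HA-HEP-PAM. It was called against SF/HA (5.59 ± 1.06, limma adjusted p = 0.0126) and not against Alkali-burned (2.67, limma adjusted p = 0.0988), and Psmc1 differed by 0.00 from Alkali-burned.

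Several of the snoRNAs with most reads were not called by limma. ENSRNOG00000070981, outside genes on chromosome 16, had 2, 1 and 4 reads in Control, 6, 3 and 4 in Alkali-burned, 2, 4 and 2 in SF/HA, and 6, 12 and 4 in SF/HA-HEP-PAM, and the groups overlapped. Snord104, a box C/D snoRNA, had 4, 3 and 5 reads in Control, 12, 6 and 8 in Alkali-burned, 3, 2 and 4 in SF/HA, and 8, 7 and 6 in SF/HA-HEP-PAM, and was called in none of the 6 comparisons. Gm26205, inside Rpl6, took 4.61, 2.74, 2.35 and 3.96 RPM and was not called either. SNORA73, inside the protein disulfide isomerase gene Pdia3, took 0.837, 2.74, 2.35 and 6.47, and only voom called it, higher than Control (2.35, adjusted p = 0.0163).

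A run of 17 snoRNA members formed one cluster on chr6:128602941-128656813, plus strand, downstream of Dlk1. This is the imprinted Dlk1 region, known in mammals for long tandem arrays of box C/D snoRNAs and miRNAs. The table holds 59 snoRNA features there and 35 of them had reads, so 18 with reads stayed outside the rule. The 17 members had 4, 1 and 6 reads in Control, 15, 12 and 15 in Alkali-burned, 4, 2 and 5 in SF/HA, and 38, 53 and 11 in SF/HA-HEP-PAM. They took 5.09 ± 3.62, 11.5 ± 1.79, 5.07 ± 0.999 and 20.1 ± 9.82 RPM (SD, n = 3 each). SF/HA-HEP-PAM replicate 3, with 11 reads, lay below each Alkali-burned library (12 to 15 reads) at a depth within their range, so those 2 groups overlapped. The sum was not tested. The feature with most reads, ENSRNOG00000062402, had 1, 0 and 2 reads in Control, 0 in Alkali-burned, 0, 0 and 1 in SF/HA and 4, 15 and 4 in SF/HA-HEP-PAM. It differed from Alkali-burned by 5.44 ± 1.23 (limma adjusted p = 0.0109), at least 5.85-fold.

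**Figure D4:**
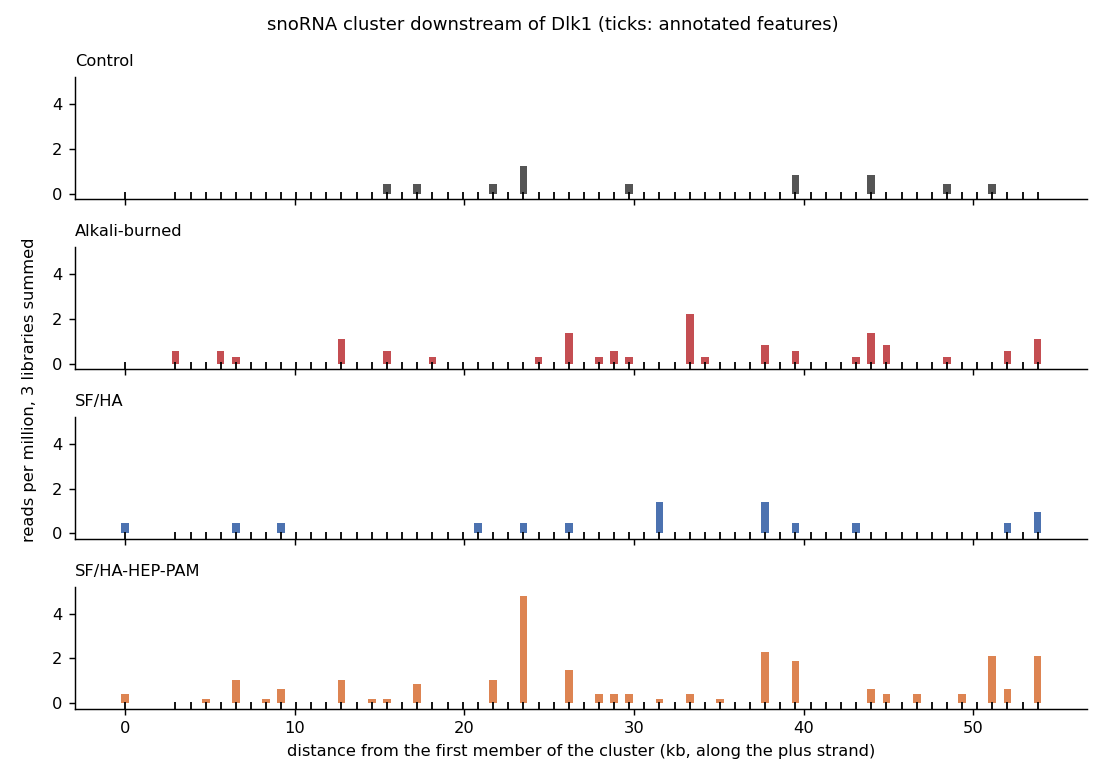
RPM (3 libraries summed, vertical axis) on each of the 59 annotated snoRNA features of the cluster downstream of Dlk1, by distance in kb from its first member; ticks mark every feature. Most features are at 0 or 1 to 2 reads, and the tallest bar, in SF/HA-HEP-PAM, is ENSRNOG00000062402 at 4.8 RPM.

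Mir24-2 had the most reads of the miRNA hairpins. It lies with Mir27a and Mir23a in one cluster on chr19:23954683-23955071, minus strand, outside annotated genes. This cluster is known to be transcribed as one primary transcript. Mir24-2 had 9, 6 and 7 reads in Control, 16, 14 and 9 in Alkali-burned, 7, 2 and 6 in SF/HA, and 66, 78 and 56 in SF/HA-HEP-PAM. The difference from Alkali-burned was 2.02 ± 0.43 (limma adjusted p = 0.00842), or 3.91-fold with an exact 95% interval of 2.76 to 5.66. It was 2.70 from SF/HA and 2.14 from Control (limma adjusted p = 0.00563 and 0.00687). These 3 calls held without any one library. Of the cluster's 293 reads 276 lay on Mir24-2, 12 on Mir23a and 5 on Mir27a, so the hairpins of one cluster differed widely in reads.

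Mir23b, which shares the seed of miR-23a, lies inside Aopep on chr17:1813667-1813763, minus strand. It had 2, 2 and 3 reads in Control, 4, 9 and 10 in Alkali-burned, 5, 3 and 3 in SF/HA, and 24, 28 and 10 in SF/HA-HEP-PAM. It was higher than Control (1.97 ± 0.42, limma adjusted p = 0.00908) and not called against Alkali-burned (1.04, limma adjusted p = 0.107). Aopep fell under the filter of the limma test, and voom gave it a log2 difference of -1.11 from Alkali-burned (adjusted p = 0.00122).

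Mir3064 lies inside Ddx5, an RNA helicase gene whose product acts in miRNA processing, on chr10:91725800-91725866, minus strand. It had 1, 10 and 1 reads in Control, 7, 1 and 2 in Alkali-burned, 2 in each SF/HA library, and 60, 63 and 51 in SF/HA-HEP-PAM. No library of another group came near the last 3. The difference from Alkali-burned was 4.17 ± 0.84 (limma adjusted p = 0.00656), or 13.3-fold with an exact 95% interval of 7.04 to 28.2. Ddx5 differed by 0.47 ± 0.14 (limma adjusted p = 0.037), under the size limit for a call.

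Mir205, a miRNA known from epithelia including that of the cornea, was lowest in SF/HA. It lies on chr13:105035878-105035985 and had 3, 12 and 7 reads in Control, 8, 7 and 8 in Alkali-burned, 0, 0 and 2 in SF/HA, and 12, 5 and 5 in SF/HA-HEP-PAM. The SF/HA libraries lay below all others. SF/HA was lower than Control by limma (-4.84 ± 0.99, adjusted p = 0.0174) and by voom (-2.85, adjusted p = 0.0241). It was lower than Alkali-burned by limma (-4.44 ± 0.99, adjusted p = 0.0385) but not called by voom (-2.37, adjusted p = 0.0978). SF/HA-HEP-PAM was higher than SF/HA by limma (3.91 ± 0.99, adjusted p = 0.0369) and not called by voom (1.75, adjusted p = 0.143). The calls against Alkali-burned and SF/HA-HEP-PAM were each lost without any one of 9 libraries, with an adjusted p up to 0.167 and 0.143 over the alternatives. The call against Control was lost without Control replicate 2, SF/HA replicate 1 or SF/HA replicate 2. SF/HA libraries 1 and 2 were among the 3 shallowest, and in each a count of 0 allows up to 4.49 and 6.01 RPM, where Control took 9.21.

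Other miRNAs had few reads. Mir155, known for its role in immune cells, had 1 read in Control and 9 in Alkali-burned, against 14 in SF/HA-HEP-PAM and 4 in SF/HA. It was called higher in SF/HA-HEP-PAM than in Control by limma (3.85, adjusted p = 0.0341), but not by voom (adjusted p = 0.0913). Markers of macrophages summed to 245 to 285 RPM in Control and to 723 to 1660 in the other libraries, with 5 of 5 called higher in Alkali-burned than in Control and 4 of 5 in SF/HA-HEP-PAM. Those of neutrophils summed to 343 to 391 in Control and 1280 to 19800 elsewhere, with Mpo at 0 in every library. Only 2 of the 4 neutrophil markers were tested. limma called 0 of them in Alkali-burned or in SF/HA against Control, and 1 higher in SF/HA-HEP-PAM than in Control. The part of these cells in the Mir155 values was not tested. Mir22 was called in no comparison, with 1, 12, 5 and 10 reads in the 4 groups. Mir130a had 11, 6 and 2 reads in SF/HA-HEP-PAM and 3 in the 9 other libraries. Mir349, inside the semaphorin receptor gene Plxnb2, had 2, 8 and 3 there and 2 elsewhere. Mir184, known as abundant in corneal epithelium as a mature miRNA, had 13 reads on its hairpin in all libraries together. Of 13 genes of miRNA processing and Argonaute function, 2 passed the filter. Tnrc6a, which encodes a silencing partner of Argonaute, was higher in SF/HA-HEP-PAM than in Alkali-burned (2.19), SF/HA (1.96) and Control (1.70).

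The scaRNAs had few reads and no common direction. AABR07032532.1, inside ENSRNOG00000067857, had the most: 0, 3 and 4 reads in Control, 6, 5 and 9 in Alkali-burned, 1 in each SF/HA library, and 11, 6 and 4 in SF/HA-HEP-PAM. It was not called, while its host differed by 3.11 between SF/HA-HEP-PAM and Alkali-burned. Gm26083 was lower in SF/HA-HEP-PAM than in Control (-2.76, limma adjusted p = 0.0453), with 2, 2 and 3 reads in Control and 1, 1 and 0 in SF/HA-HEP-PAM. voom called it as well (-2.41, adjusted p = 0.0268). The limma call was lost without any one of 9 libraries, with an adjusted p up to 0.168 over the alternatives. Gm22009 in Kpna4, Gm25820 and ENSRNOG00000070665 in Hspbap1 had 7, 5 and 4 reads in all and were not called. The 1 scaRNA called higher, AABR07044447.1, had 2, 1 and 1 reads in SF/HA-HEP-PAM and 0 elsewhere, too few for a ratio.

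Many members and their hosts had unlike log2 differences. For 59 of the 110 same-strand pairs the host was also tested. Between SF/HA-HEP-PAM and Alkali-burned the median log2 difference was 1.14 for the members and 0.05 for their hosts, and the member lay above the host in 42 of 59 pairs. These medians, and the counts of called members that follow, are descriptions, as the members were chosen by their reads. Mir349 and the U1 copy in Spire1, for example, met the rule only through the SF/HA-HEP-PAM libraries. Member and host values are also not like measures on the log2(FPKM + 1) scale. Single reads move a short member far more than a long host. The differences of hosts near 1 FPKM are drawn towards 0. Of the 8 members called higher in these pairs, 2 had a host that was also called higher, Gm22748 in Odc1 and AABR07065593.1 in NEWGENE_619861. The other 6 had hosts that were not called, among them Gm23795 in Tardbp, Mir3064 in Ddx5 and SNORD36 in Rpl7a. A further 13 members called higher had hosts below the filter, among them the U1 copies in Trappc8, Spire1 and Tmem65. By voom, Spire1 and Tmem65 were called higher as well (2.06 and 1.54), and Trappc8 was not (0.67, adjusted p = 0.443).

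**Figure D5:**
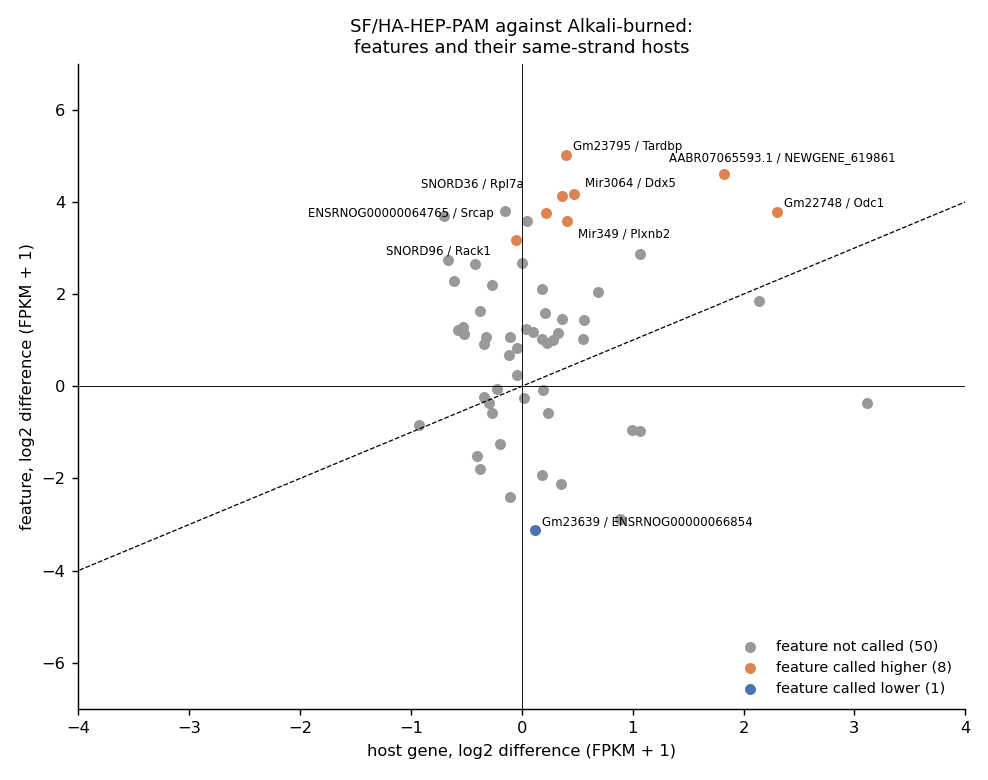
log2 difference between SF/HA-HEP-PAM and Alkali-burned on the log2(FPKM + 1) scale for 59 members (vertical axis) and their same-strand hosts (horizontal axis); the dashed line marks equal differences and the 2 axes have different scales. Called members (8 higher, 1 lower) are labelled with their host, and most hosts lie near 0. On this scale single reads move short members far more than long hosts, and differences of hosts near 1 FPKM are drawn towards 0.

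Between Alkali-burned and Control few members were called. limma called 5 higher and 4 lower (2.14% and 1.71%, against 4.42% and 1.28% of all genes), and voom called 0 higher and 2 lower (3.75% and 1.77% of all its genes). By unadjusted limma p below 0.05 there were 34, a count without a share over all genes. The 9 limma calls became 5 without Control replicate 2, 3 without Control replicate 3 and 4 without Alkali-burned replicate 3, and 27 with library weights. These counts also stand without a share over all genes. A U12 copy opposite Zwilch (ENSRNOG00000055594), part of the minor spliceosome by name, fell from 4, 6 and 6 reads in Control to 3, 1 and 0 in Alkali-burned. Its log2 difference was -3.28 ± 0.85 (limma adjusted p = 0.0375; voom -2.70, adjusted p = 0.019), a call lost without any one of 7 libraries. SNORD36 ENSRNOG00000069917 in Rpl7a was lower by limma (-3.38, adjusted p = 0.0443), from 2, 1 and 1 reads to 1, 0 and 0, and not by voom (adjusted p = 0.162). Without any one of 11 libraries this call was lost.

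U8, a box C/D snoRNA needed for the processing of large-subunit ribosomal RNA, was singled out after its values were seen. It lies on chr10:53774811-53774946, plus strand, outside genes. It had 0 reads in Control, 1, 2 and 2 in Alkali-burned, 3 in each SF/HA library, and 5, 7 and 6 in SF/HA-HEP-PAM. limma called it higher than Control in all 3 groups (3.41, 5.06 and 4.86, each ± 0.28, adjusted p = 0.000112, 2.05e-05 and 6.08e-06). The 0 reads in Control allow up to 1.26 RPM over the group, and the Alkali-burned counts lay near that limit. The small SE rests on near-equal single-digit counts. How the U8 calls change without single libraries is not given. voom called SF/HA and SF/HA-HEP-PAM higher than Control (2.90 and 2.62, adjusted p = 0.0125 and 0.00574), and not Alkali-burned (1.40, adjusted p = 0.271).

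Few members were called between SF/HA and either Alkali-burned or Control. Against Alkali-burned 2 members were higher and 2 lower (0.855% each, against 0.376% and 2.06% of all genes). At an unadjusted p below 0.05 there were 30, a count without a share over all genes. voom called 1 higher and 0 lower there (0.449% and 1.4% of all its genes): AC120949.4, inside the translation factor gene Eif4a2, with 1, 0 and 0 reads in Alkali-burned and 3, 2 and 4 in SF/HA (3.06, adjusted p = 0.0443). Against Control 3 were higher and 2 lower (1.28% and 0.855%, against 3.19% and 1.37%), Mir205 and the U6 copy ENSRNOG00000069333 being the lower ones. That U6 copy had 5 reads in Control and 0 in SF/HA (-4.37, limma adjusted p = 0.0185), and voom did not call it (adjusted p = 0.236). Among all members voom called 1 higher and 1 lower in this contrast, where 2.47% and 0.987% of its genes were.

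Few protein genes that work with these RNAs were called. Of 7 tested box C/D particle genes, limma called 1, a gene model (ENSRNOG00000025154) named for Snu13, which encodes a protein shared by snoRNPs and the spliceosome. It was higher in Alkali-burned than in Control (1.37, adjusted p = 0.0491) and lower in SF/HA than in Alkali-burned (-1.73, adjusted p = 0.038), and voom called neither. The other Snu13 model (ENSRNOG00000006762) was not called (0.30 and 0.11). None of 3 box H/ACA genes, 5 genes of the 7SK particle, 5 of RNase P and MRP or 2 of Y RNA and vault particles was called by limma. Of 42 known snoRNA host genes tested, 1 was called: Hspa8, a heat shock protein gene, higher in Alkali-burned than in Control (1.38).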

How the data were processed

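Small RNA features were measured in 12 rat cornea libraries, 3 per group. The values are FPKM per gene as deposited by the authors; per the submitters' processing notes the tools were bcl2fastq, fastp, STAR, featureCounts and DESeq2 with the genome build mRatBN7.2, whereas the series text names HTSeq-count as the counter. Versions, the annotation release, the collapse of molecular identifiers, strand use and the treatment of multiply mapped reads are not given in the sources used here. Of 30560 lines, 108 naming no gene were left out.

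FPKM times Length, where Length is the full genomic span for 100% of genes, came out in whole steps of 1 size within each library (largest relative deviation 3.51e-06), which gave the recovered reads and the library totals. Because the values are FPKM, limma 3.58.1 with a variance trend was run on log2(FPKM + 1) for genes reaching 1 FPKM in 3 or more libraries, with 4 group means and Benjamini-Hochberg adjustment over all genes tested. The alternative was limma voom on recovered reads for genes with at least 10 reads summed. Ratios of group-summed reads have exact 95% binomial intervals. The script was tested on simulated data. Python 3.11.15 and R 4.3.3 were used.

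The members and gene lists were chosen with earlier results of these data known. Members named are the 10 largest rises and the largest falls among those called with at least 3 reads in each library of the higher group, and in each class the 6 with most reads. U8, Mir130a, Mir349, Mir184, Mir23a, Mir27a, AC120949.4, AABR07065593.1, ENSRNOG00000053902, ENSRNOG00000051865, ENSRNOG00000065502 and ENSRNOG00000060659 were named after their values were seen. Replicate numbers did not pair the libraries. No sequences other than mature miRNAs were used here.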

Additional observations from a re-analysis of the deposited data

Results flagged for a closer look

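Other classes of small noncoding genes outside the classes described had more reads in some groups than in any Control library. Ribozyme genes, mainly Rpph1, the RNA subunit of RNase P, took at least 76.7 RPM in every Alkali-burned library, 54.1 in SF/HA and 284 in SF/HA-HEP-PAM, where the highest Control library had 50.2. Rpph1 had 14, 42 and 50 reads in Control, 106, 91 and 97 in Alkali-burned, 79, 25 and 74 in SF/HA, and 484, 589 and 385 in SF/HA-HEP-PAM. It was higher in SF/HA-HEP-PAM than in Alkali-burned (log2 difference 1.93 ± 0.29, limma adjusted p = 0.00164). The vault RNA gene took at least 231 RPM in Alkali-burned and 212 in SF/HA-HEP-PAM, where the highest Control library had 149. rRNA genes took at least 71.6 in Alkali-burned and 102 in SF/HA-HEP-PAM, where the highest Control library had 71.1.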

How the results depend on the processing

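Counts of called members are given in the order Alkali-burned against Control, SF/HA against Alkali-burned, SF/HA-HEP-PAM against Alkali-burned, against SF/HA, SF/HA against Control, and SF/HA-HEP-PAM against Control, then the F-test: 9, 4, 40, 36, 5, 59 and 58. Leaving out 1 library gave 3 to 9, 3 to 7, 21 to 46, 7 to 42, 4 to 7, 36 to 64 and 24 to 63. The lowest F-test counts came without SF/HA-HEP-PAM replicate 1, 2 or 3 (24, 36 and 35). Alkali-burned against Control had 5 without Control replicate 2, 3 without Control replicate 3 and 4 without Alkali-burned replicate 3. SF/HA against Alkali-burned had 7 without Control replicate 1 or Alkali-burned replicate 1. A pseudocount of 20 gave 1, 2, 25, 20, 2 and 31 calls. Without a filter there were 2 for Alkali-burned against Control, 2 for SF/HA against Control and 38 for the F-test. Testing only genes with at least 10 reads summed gave 2, 1, 22, 21, 3, 36 and 32, with fewer members tested. voom gave 2, 1, 30, 16, 2, 29 and 29. Library weights gave 27, 13 and 72 for the first 3 comparisons and 9 for SF/HA against Control. A pair of alternatives were chosen after seeing the data. The 59 members found in Control and SF/HA libraries had 5 calls in the first comparison, 10 and 7 against Alkali-burned and SF/HA, 15 for SF/HA-HEP-PAM against Control and 17 for the F-test. voom restricted to at least 10 reads in 3 libraries gave 0, 0, 9, 9, 0, 11 and 9. Apart from voom on the recovered reads, the share of all genes called under these settings or without 1 library is not given, here or above. Nothing about members as against other genes is therefore read from these changes in counts. The causes of these differences were not tested.

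With the replicate number as a block (replicate block) the counts were 7, 4, 40, 36, 5, 59 and 54. Same-numbered libraries had correlations of -0.09 to 0.15, with 2 of 18 pairs over 0.1, and 4 of 12 libraries correlated best with their own number. The number of features was 581 with reads in at least 1 library, 88 in at least 6, 12 in all 12, and 128 expected after thinning. Without the member with most reads the shares were 191, 221, 209 and 686 RPM. Of 1247 alternative values for 53 calls of named members, 1059 stayed called in the same direction, 188 were no longer called and 0 reversed. Alternatives in which a member was no longer tested are not among these values. For AABR07004450.2 and AABR07044447.1, 9 of the 12 fits without 1 library counted. The tally also holds calls of members that met the rule only through the SF/HA-HEP-PAM libraries. Depth limits all of this: the median member had 8 reads over the 12 libraries.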

Other observations

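Y RNAs, which bind the Ro60 protein, took 10.3 ± 5.78, 11.9 ± 6.71, 13.7 ± 5.08 and 13.6 ± 2.8 RPM in the groups Control, Alkali-burned and SF/HA and in SF/HA-HEP-PAM (SD, n = 3 each), and these groups overlapped. Of 15 tested rRNA genes, limma called 7 higher in SF/HA-HEP-PAM than in Control, where 9.21% of all tested genes were higher. The lens crystallin and channel genes used as markers summed to 30.7 to 42.5 RPM in SF/HA-HEP-PAM and to 5.75 to 12.5 in the other libraries. Of these 4 genes only 2 were tested, and Crygd was at 0 in every library. limma called 1 higher in SF/HA-HEP-PAM against each other group. The part of lens RNA in any result was not tested.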
